A study of Mus musculus with 6 samples.

Results

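The collagen genes were examined in GFP-positive keratinocytes sorted from the epidermis of K19 *Itga3* WT and K19 *Itga3* KO mice. Members were the protein-coding rows of the count table whose whole symbol reads Col, digits, a and digits. *Col17a1*, *Col4a1* and *Col4a2* were left out by rule, which gave 36 genes of 39 with such a symbol and of 22295 genes in the table. Both genotypes carried K19(Cre-ERT), a tamoxifen-inducible Cre under the keratin 19 promoter that marks hair bulge (HB) cells, and the mTmG reporter, which turns a cell and its progeny GFP-positive once Cre has acted, on an FVB background. KO mice also carried floxed alleles of *Itga3*, the α3 subunit of the laminin receptor integrin α3β1. Per the labels, mice of both genotypes were shaved and injected with 10 mg/ml tamoxifen over 4 days at 6 weeks of age, received 1 dose of 30 μg of the mutagen DMBA at 7 weeks, and then bi-weekly applications of 12.34 μg of the tumor promoter TPA. The study's methods give another tamoxifen dose and schedule. The study describes the treatment of the sequenced mice as short-term, with 4 doses of TPA, at a stage before tumors had formed. One library was made per mouse, with 3 libraries per genotype, lettered a to c within each genotype as the table lists them. GFP follows the progeny of the labelled cells, so the sort can hold keratinocytes that have left the bulge for growing follicles or the neighbouring epidermis.

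Collagens are trimers that share a triple helix. Most are secreted, and some, such as the product of *Col23a1*, are transmembrane. Fibrillar collagens, such as collagen I, form the fibers of the dermis and are classically made by fibroblasts, whereas keratinocytes make collagens of the basement membrane zone on which they rest, such as collagen VII of the anchoring fibrils and chains of collagen IV. Both kinds reach the matrix after hydroxylation and folding in the endoplasmic reticulum and, for many, cleavage of their propeptides. The keratinocyte list here held *Col7a1*, *Col4a3*, *Col4a4*, *Col4a5*, *Col4a6*, *Col18a1* and *Col23a1*, with *Col13a1* not analysed here. The fibroblast list held *Col1a1*, *Col1a2*, *Col3a1*, *Col5a1*, *Col5a2*, *Col5a3*, *Col6a1*, *Col6a2*, *Col6a3*, *Col12a1* and *Col14a1*, and 18 members were on neither list.

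The libraries held 20578309 to 23670507 counts, so that 3 counts, taken as the floor, were worth 0.127 to 0.146 CPM (counts per 1000000 counts of the library, scaled by TMM factors wherever a level is given). *Itga3* had 8091, 5512 and 6150 counts in the WT and 3078, 2637 and 2767 in the KO libraries, a fall of 1.20 ± 0.13 on the log2 scale (standard error; edgeR quasi-likelihood adjusted p = 0.00283). The whole gene is counted, with the part that is not deleted. The sort was checked by marker lists. Summed keratinocyte markers were at 33256 to 50144 CPM in WT and 40963 to 45527 CPM in KO libraries, and 1 of the 7, *Krt17*, rose (2078 ± 10.2 CPM in WT, 3437 ± 633 in KO, SD, n = 3; edgeR adjusted p = 0.0409). Of the defining fibroblast markers, *Lum* had 0, 1 and 0 counts in WT and 2, 3 and 1 in KO, *Dpt* 0, 0 and 3 in WT and 1, 0 and 3 in KO, *Pdgfra* 15, 29 and 24 in WT and 8, 12 and 7 in KO, and *Dcn* 18, 37 and 13 in WT and 128, 33 and 85 in KO. *Postn*, the most abundant gene of that list, had 2886 to 7558 CPM, and the sum over its 13 measured members of 14 was 4111 to 8071 CPM in WT and 3426 to 4125 CPM in KO. The summed endothelial markers reached 5.64 to 9.04 CPM in WT and 3.70 to 5.30 CPM in KO. Of the defining ones, *Cdh5* had 0 counts in every WT library and 2, 0 and 1 in KO. The other, *Pecam1*, had 21, 23 and 32 counts in WT and 44, 35 and 38 in KO, higher in every KO library. *Tek*, the most abundant gene of the endothelial list, went the other way, with 114, 82 and 49 counts in WT and 25, 33 and 28 in KO (edgeR adjusted p = 0.0708). Immune, melanocyte, mural, Schwann and adipocyte lists stayed at or under 13.9 CPM in every library, with *Adipoq* at 0 in all but WT b. Among the bulge markers *Cd34* fell, from 853 ± 40.7 CPM in WT to 516 ± 113 CPM in KO (SD, n = 3; edgeR adjusted p = 0.0462). *Lgr5* (log2 fold change -0.47 ± 0.17, edgeR adjusted p = 0.283) and *Krt15* (-0.21 ± 0.17, adjusted p = 0.681) overlapped between the genotypes. The summed bulge markers overlapped too, at 11068 to 17035 CPM in WT and 10377 to 13649 CPM in KO. In bulk RNA, fewer cells of a type and less RNA per cell cannot be told apart.

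The promoters of a few members on which the results turn are shown first. RefSeq (GRCm38.p6) promoters were matched by symbol for 27 of the 36 members. Printed 5′ to 3′ on the strand of the gene are the 250 bases before the RefSeq start of *Col27a1* (the member that passed the test), *Col8a2* and *Col7a1* (abundant members lower in every KO library), and the whole 71 bases between the divergent genes *Col4a4* and *Col4a3*, in the direction of *Col4a4*. Capitals mark matches, on either strand, to the GC box GGGCGG or the CCAAT box CCAAT.
*Col27a1*, chr4:63215162-63215411, plus strand: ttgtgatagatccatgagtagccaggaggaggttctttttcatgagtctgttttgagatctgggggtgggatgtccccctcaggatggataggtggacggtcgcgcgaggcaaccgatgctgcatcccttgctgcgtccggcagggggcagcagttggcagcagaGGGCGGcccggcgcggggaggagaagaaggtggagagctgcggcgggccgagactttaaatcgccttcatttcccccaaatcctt
*Col8a2*, chr4:126286544-126286793, plus strand: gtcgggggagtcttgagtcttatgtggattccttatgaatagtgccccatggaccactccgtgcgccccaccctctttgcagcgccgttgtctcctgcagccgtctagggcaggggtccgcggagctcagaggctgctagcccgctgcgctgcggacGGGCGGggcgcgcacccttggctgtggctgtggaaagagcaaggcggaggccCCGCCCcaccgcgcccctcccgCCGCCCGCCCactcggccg
*Col7a1*, chr9:108953336-108953585, plus strand: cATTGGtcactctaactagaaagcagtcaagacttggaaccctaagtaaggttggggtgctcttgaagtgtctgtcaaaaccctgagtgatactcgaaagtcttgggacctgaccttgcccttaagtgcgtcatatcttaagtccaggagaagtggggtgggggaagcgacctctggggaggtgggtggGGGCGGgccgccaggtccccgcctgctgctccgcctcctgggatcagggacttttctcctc
*Col4a4* and *Col4a3*, chr1:82586850-82586920, minus strand: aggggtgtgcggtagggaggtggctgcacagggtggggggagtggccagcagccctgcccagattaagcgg
The *Col27a1* window held 1 GC box match, *Col7a1* 1 GC box and 1 CCAAT box match, *Col8a2* 4 GC box matches of which the last 2 overlap, and the gap between *Col4a4* and *Col4a3* neither. The count table starts the *Col27a1* gene at base 63214004, upstream of the window printed. In the 250 bases before the RefSeq start, GGGCGG was found in 19 of the 29 promoters of these 27 members (*Col18a1* and *Col6a2* have 2 each). Over all 32851 promoters its share was 32.7%. CCAAT was found in 9 of the 29 (33.8% of all). The AP-1 motif TGANTCA was found in 1 (6.75% of all), the TEAD motif GGAATG in 4 (12.6%) and the TATA box TATAAA in 2 (12.4%). These are matches of letters in a window.

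Each list held collagen transcripts that were abundant in the sorted cells and others that were low. Levels of different genes were compared as CPM per kb of exon. The 5 highest members, *Col18a1*, *Col6a1*, *Col7a1*, *Col8a2* and *Col16a1*, held 80.0% of the summed collagen level, and 32 members exceeded 3 counts in at least 1 library. *Col28a1*, *Col26a1*, *Col6a4* and *Col22a1* did not. *Col18a1*, which gives the basement membrane proteoglycan collagen XVIII, was first, at 135.8 ± 50.0 CPM per kb in WT and 132.3 ± 16.7 in KO (SD, n = 3), above 98.8% of the tested genes with an exon length. *Col6a1*, a chain of the microfibrillar collagen VI, followed at 113.8 ± 1.57 in WT and 95.1 ± 20.7 in KO. The spread of *Col18a1* in WT covered the mean of *Col6a1*, so the order of these neighbours did not hold beyond their spread. *Col7a1* had 83.4 ± 6.82 CPM per kb in WT and 63.3 ± 10.2 in KO, *Col8a2* 71.5 ± 8.40 and 42.5 ± 10.6, and *Col16a1* 39.0 ± 9.95 and 33.1 ± 5.45. Ordered by the mean over all 6 libraries, *Col12a1* (25.5 ± 5.37 in WT) and *Col6a2* (18.6 ± 0.0941 in WT) were followed by *Col1a1* (13.0 ± 6.37 in WT), *Col5a2*, *Col4a6*, *Col4a5*, *Col14a1*, *Col5a1*, *Col1a2*, *Col4a4*, *Col15a1*, *Col9a3* and *Col27a1*, and then by *Col8a1*, *Col6a3*, *Col4a3* and *Col23a1* with a mean under 1 CPM per kb. In this stretch the order by genotype differed, since *Col14a1* was at 2.15 ± 2.32 in WT and 9.52 ± 4.24 in KO.

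**Figure D1:**
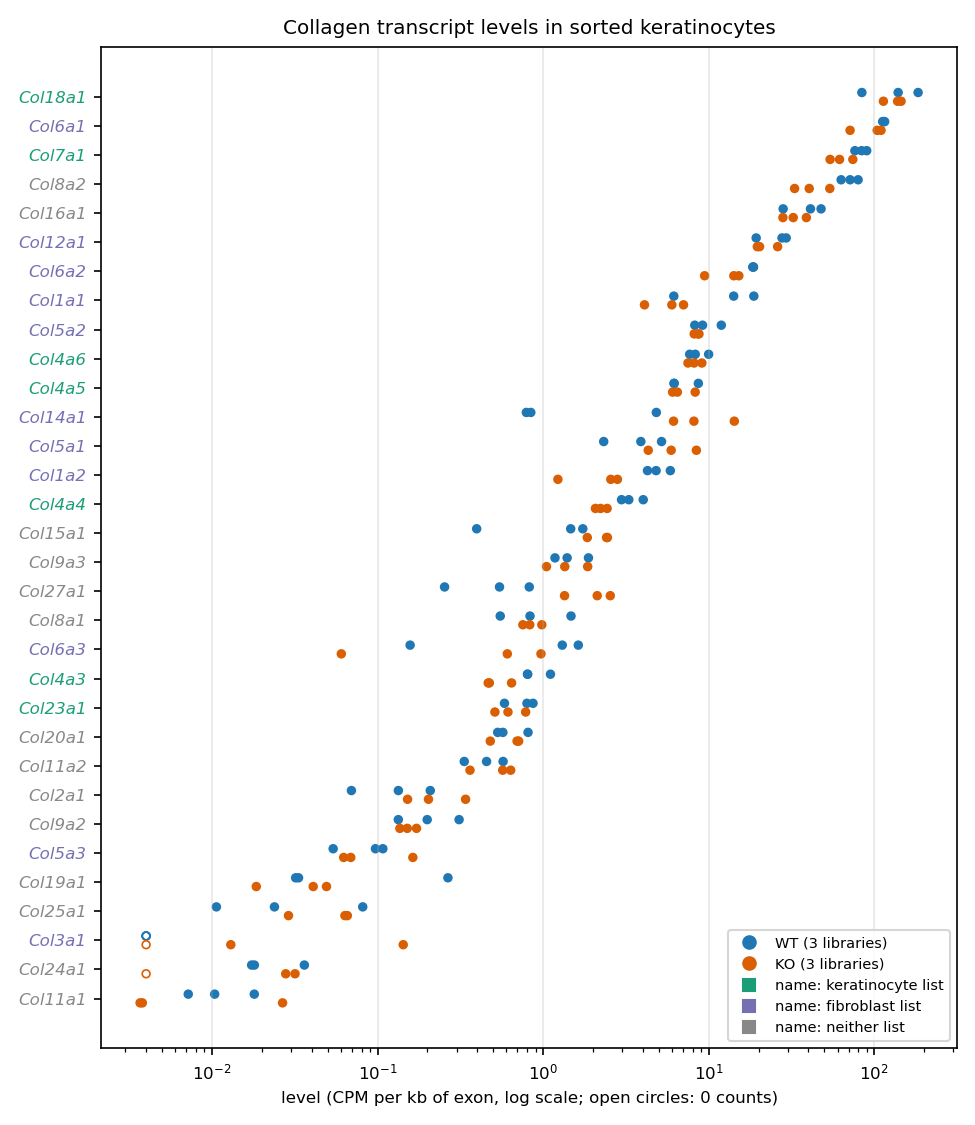
Level of each collagen gene above 3 counts in some library, in CPM per kb of exon on a log scale, for the 3 WT (blue) and 3 KO (orange) libraries; open circles are libraries with 0 counts, and the color of a name gives its list. *Col18a1*, *Col6a1* and *Col7a1* lead in both genotypes, and *Col14a1* and *Col27a1* have every KO point to the right of every WT point.

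Levels were compared between partners of a known trimer and, for *Col3a1*, with a neighbouring gene. The α1 and α2 chains of collagen VI, encoded 85.2 kb apart on chromosome 10, were joined by very little of the third chain, *Col6a3*, whose level was 0.0846% to 1.45% of that of *Col6a1*. The mesenchymal fibril gene *Col3a1* had 0 counts in each WT library and 3, 0 and 29 counts in KO libraries, while its neighbour *Col5a2*, 24.6 kb away on chromosome 1, had 1732 to 2495 counts in every library. *Col1a1* and *Col1a2*, whose products join in collagen I, had a ratio per kb of 1.05 to 4.39 over the libraries, or 0.500 to 2.09 when the longest transcript was used as length. Thus the collagen I genes had at least 359 counts in every library, while *Col3a1* was at 0 in 4 of 6.

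Of the 36 collagen genes, 1 was called between KO and WT at an adjusted p below 0.05, against 0.673% of the 21681 genes tested (edgeR quasi-likelihood test, Benjamini-Hochberg adjustment). At an unadjusted p below 0.05, 7 members were lower in KO (5.97% of all genes were) and 5 higher (5.58% of all genes). The groups did not overlap, with KO lower, for 7 members (19.4%, against 8.23% of all genes), and with KO higher for 3 members (8.33%, against 8.03%). The median log2 fold change of KO over WT was -0.18 over the members, or -0.11 with genes at 0 in a group set to their bound at the floor, and 25 of 36 were below 0. Over all genes tested the median was 8.8e-05. Exact permutation tests of single genes cannot go below p = 0.1 with 3 libraries against 3.

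The member that passed was *Col27a1* (ENSMUSG00000045672, chr4:63214004-63334991), a fibrillar collagen best known from cartilage. It had 234, 155 and 75 counts in the WT libraries (a to c) and 650, 374 and 685 in the KO libraries (a to c). Every KO library was above every WT library. The level rose from 7.05 ± 3.72 to 26.1 ± 7.91 CPM (SD, n = 3), 1.89 ± 0.34 on the log2 scale (edgeR adjusted p = 0.0333, exact permutation p = 0.1). It was called in 5 of 14 alternative settings, with a log2 fold change of 1.55 to 2.33 and an adjusted p of 0.00535 to 0.350. By limma-voom its adjusted p was 0.118. Leaving out WT b, WT c, KO a or KO c also ended the call, at adjusted p = 0.0892, 0.350, 0.333 and 0.146. *Col27a1* remained a minor collagen of these cells, at 0.541 ± 0.285 CPM per kb in WT and 2.00 ± 0.607 in KO.

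**Figure D2:**
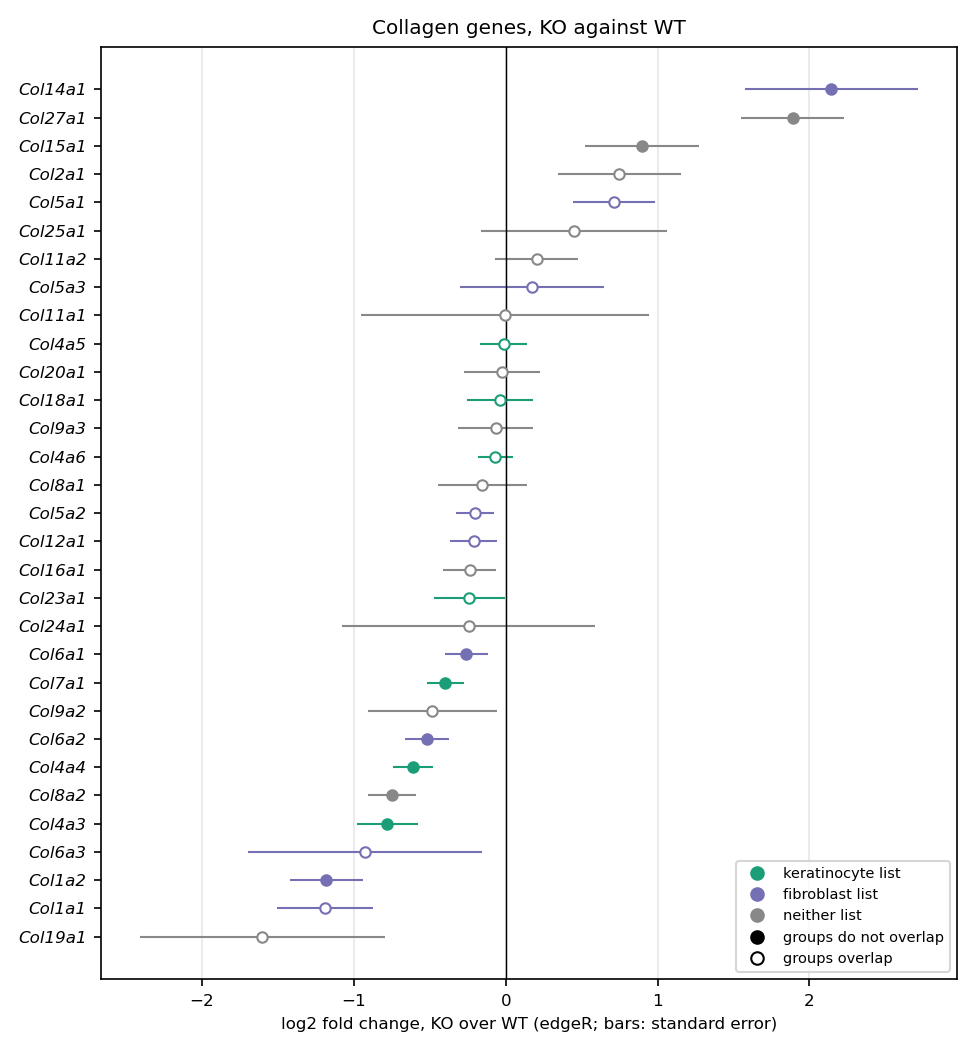
Log2 fold change of KO over WT for the collagen genes above 3 counts in some library except *Col3a1*, which was at 0 in WT, with bars for the standard error from edgeR; colors give the lists and filled points mark genes whose groups do not overlap. *Col27a1* (1.89) was the one gene that passed at an adjusted p below 0.05.

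All 7 measured members of the keratinocyte list had a log2 fold change below 0, with a median of -0.24. By edgeR and limma-voom 0 were called, and DESeq2 called *Col4a3* and *Col4a4*. At an unadjusted p below 0.05, 3 were lower (5.97% of all genes were) and 0 higher, and these 3, *Col7a1*, *Col4a4* and *Col4a3*, were also those without overlap (8.23% of all genes were lower in this way). *Col7a1*, which forms the anchoring fibrils, had 926, 862 and 786 CPM in the WT libraries (a to c) and 556, 763 and 635 in the KO libraries (a to c). The highest KO library, b, came close to the lowest WT library, c. The log2 fold change was -0.40 ± 0.12 (edgeR adjusted p = 0.203).

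The α3 and α4 chains of collagen IV, which join with α5 in a specialised basement membrane network, come from the gene pair with 71 bases between them on chromosome 1, in which none of the motifs searched was found. *Col4a4* had 761, 932 and 716 counts in WT and 608, 503 and 454 in KO libraries. *Col4a3* had 175, 241 and 182 counts in WT and 111, 137 and 96 in KO libraries. For both genes the highest KO library was below the lowest WT library. KO held 65.4% of the WT level of *Col4a4* (log2 fold change -0.61 ± 0.13, edgeR adjusted p = 0.0654) and 58.3% of that of *Col4a3* (-0.78 ± 0.20, adjusted p = 0.114). DESeq2 called both, and edgeR called *Col4a4* without WT a (adjusted p = 0.0417). The level of *Col4a3* was 0.194 to 0.290 of that of *Col4a4* per kb over all libraries.

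The other divergent pair, *Col4a6* and *Col4a5*, lies 1308 bases apart on chromosome X. *Col4a6* had 1441, 1739 and 1388 counts in WT and 1406, 1387 and 1499 in KO, and *Col4a5* 905, 1270 and 941 in WT and 1022, 867 and 1151 in KO. The genotypes overlapped for both genes. The log2 fold changes were -0.069 ± 0.12 and -0.015 ± 0.15 (edgeR adjusted p = 0.838 and 0.999), and both changed sign without WT b, to 0.047 and 0.17. The difference between the pairs on chromosome 1 and chromosome X was not itself tested.

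*Col18a1* varied more within WT than between the genotypes. Its counts were 28140, 12897 and 22192 in WT and 18751, 21733 and 20084 in KO. WT a held the highest and WT b the lowest value of all libraries. The log2 fold change was -0.037 ± 0.22 (edgeR adjusted p = 0.970) and turned to 0.25 without WT a and to -0.29 without WT b. *Col23a1*, a transmembrane collagen, had 73, 100 and 113 counts in WT and 69, 75 and 93 in KO libraries (log2 fold change -0.24 ± 0.23, adjusted p = 0.681). The bulge marker *Cd34* was lower in every KO library, as *Col7a1*, *Col4a3* and *Col4a4* were, whereas the bulge markers *Lgr5* and *Krt15* overlapped. The part of *Cd34* in these results was not tested.

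The fibroblast list had members on both sides of 0. Of its 11 members, 0 were called by edgeR or limma-voom and 1 (*Col1a2*) by DESeq2, 3 were lower and 3 higher at an unadjusted p below 0.05 (5.97% and 5.58% of all genes), and the groups did not overlap for 3 with KO lower and 1 with KO higher (8.23% and 8.03% of all genes). The median log2 fold change was -0.21. Those lower at that limit were *Col1a1*, *Col1a2* and *Col6a2*, and those higher *Col14a1*, *Col5a1* and *Col3a1*.

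*Col1a2*, the α2 chain of collagen I, had 1156, 1591 and 1356 counts in the WT libraries (a to c) and 359, 679 and 722 in the KO libraries (a to c). The genotypes were clearly apart, and KO held 44.2% of the WT level (log2 fold change -1.18 ± 0.24, edgeR adjusted p = 0.0555). DESeq2 called it (adjusted p = 0.00073), as did edgeR without WT a (0.0237), and the adjusted p over all alternatives was 0.00073 to 0.386. *Col1a1* (chr11:94936224-94953042), which lies 91.4 kb from *Itga3*, had 2679, 882 and 2107 counts in WT and 632, 986 and 813 in KO libraries. WT b lay among the KO libraries and the other WT libraries lay above them. The log2 fold change was -1.19 ± 0.32 (adjusted p = 0.127), and -1.53 without WT b, where edgeR called the gene (adjusted p = 0.0109). With any other library left out it was -0.83 (without WT a) to -1.36 and not called (adjusted p up to 0.630, without KO a). Summed, *Col1a1* and *Col1a2* reached 23.0, 12.02 and 19.0 CPM per kb in WT and 5.32, 9.61 and 8.80 in KO libraries, so that KO held 44.0% of the WT sum without overlap.

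*Col6a1* and *Col6a2* were nearly even across the WT libraries and lower in the KO libraries, though not past the threshold. *Col6a1* had 498, 492 and 506 CPM in the WT libraries (a to c) and 313, 481 and 456 in the KO libraries (a to c). *Col6a2* had 154, 155 and 155 CPM in WT and 78.6, 118 and 127 in KO. For both genes the KO libraries lay below the WT libraries, with KO a far below the rest. The log2 fold change was -0.26 ± 0.14 for *Col6a1* (edgeR adjusted p = 0.537) and -0.52 ± 0.15 for *Col6a2* (adjusted p = 0.155), and these were -0.090 and -0.34 without KO a. The ratio of *Col6a1* to *Col6a2* per kb was 6.05 to 6.20 in WT and 6.85 to 7.74 in KO, again without overlap (3.61 to 3.70 and 4.09 to 4.62 with the longest transcript as length). *Col6a3* had 41, 426 and 354 counts in WT and 17, 155 and 240 in KO (log2 fold change -0.93 ± 0.77, adjusted p = 0.681), and WT a and KO a were far below the other libraries.

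*Col14a1*, a collagen that binds to the surface of fibrils, had 121, 739 and 134 counts in WT and 1343, 917 and 2070 in KO libraries. WT b was well above the other WT libraries and still below each KO library. The log2 fold change was 2.14 ± 0.57 (edgeR adjusted p = 0.128), and 3.54 without WT b, where edgeR called the gene (adjusted p = 0.00157). With any other library left out it was 1.73 to 2.38 and not called (adjusted p up to 0.561, without WT c). *Col5a1*, a chain of the fibril-nucleating collagen V, had 720, 962 and 447 counts in WT and 1185, 781 and 1479 in KO. KO b lay among the WT libraries (log2 fold change 0.71 ± 0.27, adjusted p = 0.319). Its partner chain *Col5a2* did not show a difference beyond the spread (-0.20 ± 0.12, adjusted p = 0.599), nor did *Col12a1* (-0.21 ± 0.16, adjusted p = 0.671). *Col5a3*, at 8 to 23 counts in every library, was too low for a direction. No fold is given for *Col3a1*, which was at 0 in every WT library (edgeR adjusted p = 0.263).

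Values of the fibroblast markers stood on both sides of 0 as well. *Pdgfra* (1.02 ± 0.321 CPM in WT, 0.414 ± 0.129 in KO, edgeR adjusted p = 0.203) and *Thy1* (74.7 ± 14.4 and 38.5 ± 14.5 CPM, adjusted p = 0.112) were lower in each KO library, as *Col1a2* was. *Lum* was higher in each KO library, at 3 counts or fewer. Of the 13 measured, only these were without overlap, 2 lower and 1 higher (8.23% and 8.03% of all genes). Genes that overlapped included *Fbln1* (193 ± 28.4 CPM in WT, 199 ± 23.1 in KO), *Vim* (6.65 ± 2.28 and 9.11 ± 1.70) and *Dpp4* (4.71 ± 2.00 and 8.19 ± 2.75). *Postn* had 76516, 165004 and 134895 counts in WT and 73370, 75808 and 59666 in KO, with WT a among the KO libraries (adjusted p = 0.124). *Dcn* was at 1.03 ± 0.588 CPM in WT and 3.70 ± 1.98 CPM in KO (adjusted p = 0.113), highest in KO a and KO c, which also had the highest *Col14a1* and *Col5a1*. Without *Postn* the fibroblast markers summed to 513 to 622 CPM in WT and 391 to 570 in KO, and KO a was the lowest, as it was for *Col6a1* and *Col6a2*. Most of that sum was *Sparc* and *Fbln1*, at 176 and 173 CPM in KO a, and not the defining markers. Of the defining markers, *Dcn* was highest in KO a. The part of other cells in the collagen results was not tested.

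**Figure D3:**
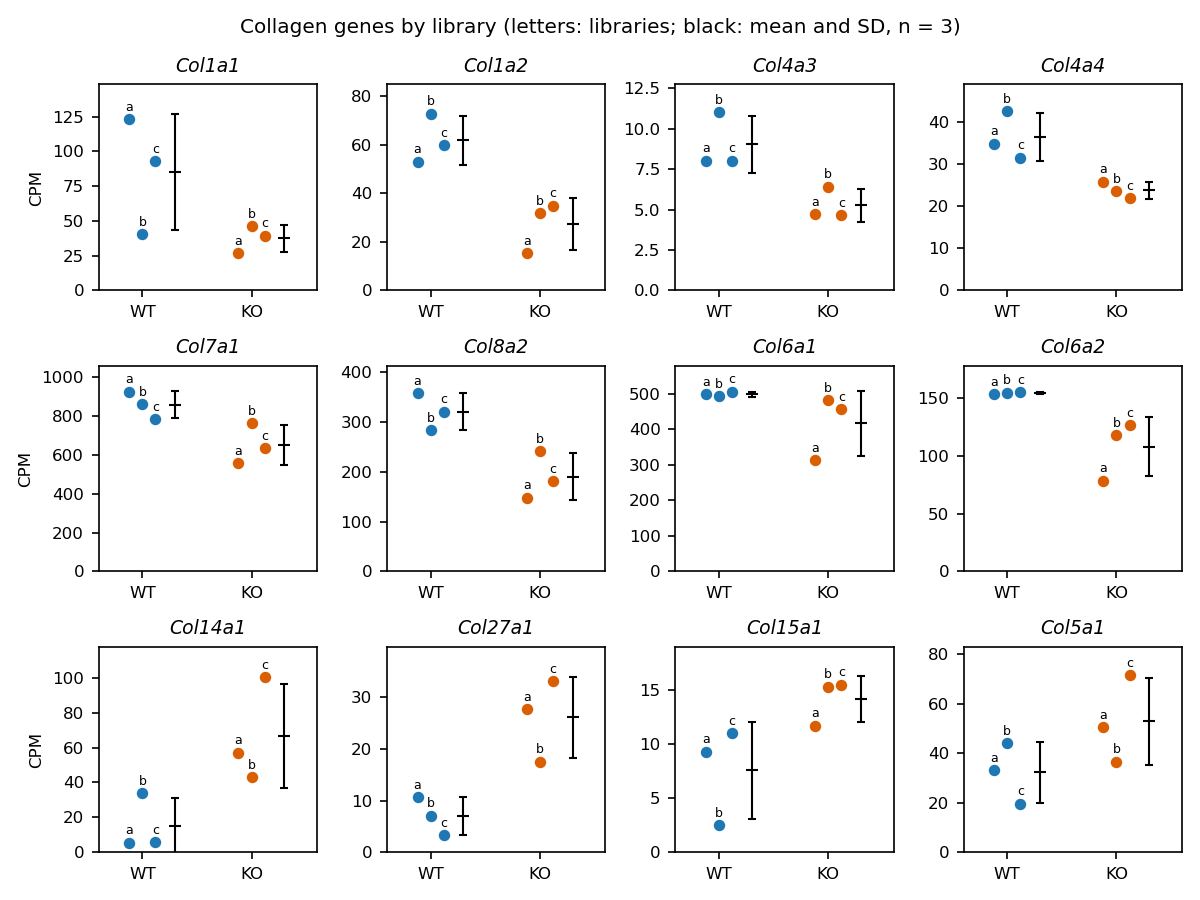
CPM of 12 collagen genes in each library, labelled by its letter, with the mean and SD of 3 libraries per genotype in black; each panel has its own axis from 0, and the SD bar of *Col14a1* in WT is cut at 0. KO points lie below all WT points for *Col1a2*, *Col4a3*, *Col4a4*, *Col7a1*, *Col8a2*, *Col6a1* and *Col6a2*, above them for *Col14a1*, *Col27a1* and *Col15a1*, and overlap them for *Col1a1* and *Col5a1*.

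Among the 18 members on neither list, 1 was lower and 2 were higher at an unadjusted p below 0.05, near the shares over all genes (5.97% and 5.58%). The median log2 fold change was -0.045, or -0.014 with genes at 0 in a group set to their bound. *Col8a2* (chr4:126286793-126314330), a short-chain network collagen known from the basement membrane of the corneal endothelium, was the abundant member among them. It had 7812, 6180 and 7276 counts in WT and 3487, 5157 and 3756 in KO libraries. Every KO library was below every WT library, and KO held 59.4% of the WT level (log2 fold change -0.75 ± 0.16, edgeR adjusted p = 0.0621). DESeq2 called it (adjusted p = 0.00212), as did edgeR without KO b (0.0114). Its partner *Col8a1* had 94 to 252 counts in WT and 126 to 159 in KO, with no difference beyond the spread.

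*Col15a1*, the closest relative of *Col18a1*, had 203, 55 and 250 counts in WT and 276, 327 and 321 in KO libraries. Each KO library was above each WT library, with WT b far below the rest (log2 fold change 0.90 ± 0.37, edgeR adjusted p = 0.384). Without WT b the log2 fold change was 0.48. *Col16a1*, a fibril-associated collagen, overlapped between the genotypes at 6058, 4150 and 7304 counts in WT and 6176, 4662 and 3917 in KO (-0.24 ± 0.17, adjusted p = 0.667). The remaining members above the floor, *Col9a3*, *Col20a1*, *Col11a2*, *Col2a1*, *Col9a2*, *Col19a1*, *Col25a1*, *Col24a1* and *Col11a1*, had at most 158 counts in any library and overlapping groups.

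By structural class, the network collagens (*Col4a3* to *Col4a6*, *Col8a1* and *Col8a2*) were below 0 for 6 of 6 genes. Of the 21681 genes tested, 10840 were below 0. The median log2 fold change of the network class was -0.38, and 3 did not overlap (8.23% of all genes were lower without overlap). *Col4a6*, *Col4a5* and *Col8a1* overlapped, at -0.069 ± 0.12, -0.015 ± 0.15 and -0.16 ± 0.29, each within its standard error of 0. The fibrillar class was split, with 5 of 11 below 0 and 6 above 0 and a median of 0.17. That median is the value of *Col5a3*, which was too low for a direction. The 6 include *Col5a3* and *Col3a1*, the latter at 0 in every WT library. The fibril-associated class was below 0 for 7 of 8 tested genes with *Col14a1* as the exception, and its median was -0.22, or -0.14 with *Col22a1*, which was under the floor, set to its bound.

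The share of keratinocyte among the keratinocyte and fibroblast collagens overlapped between the genotypes. The keratinocyte list summed to 293, 193 and 234 CPM per kb in the WT libraries (a to c) and to 185, 237 and 221 in the KO libraries. The fibroblast list summed to 197, 186 and 195 in WT and to 128, 179 and 181 in KO. The keratinocyte sums overlapped, while the fibroblast sums of the KO libraries were all below those of WT. Of the 2 lists together, the keratinocyte list held 55.1% ± 4.50 in WT and 57.0% ± 2.06 in KO (SD, n = 3). Single libraries lay between 50.9% and 59.8%, both of these in WT. *Col18a1* alone set much of the spread, since it was 17.7% to 29.8% of the level of all members. A sum without it, which was not planned, was 109.2, 108.4 and 94.9 CPM per kb in WT and 71.5, 91.9 and 82.4 in KO libraries. In that sum the genotypes no longer overlapped. Most of it was *Col7a1*, at 83.4 ± 6.82 CPM per kb in WT and 63.3 ± 10.2 in KO, which was without overlap by itself. Most of the fibroblast sum was collagen VI, at 132, 133 and 135 CPM per kb in WT and 80.9, 125 and 120 in KO. Without collagen VI, in a sum that was not planned either, the fibroblast list overlapped, at 59.3 ± 5.63 in WT and 54.3 ± 6.77 in KO.

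**Figure D4:**
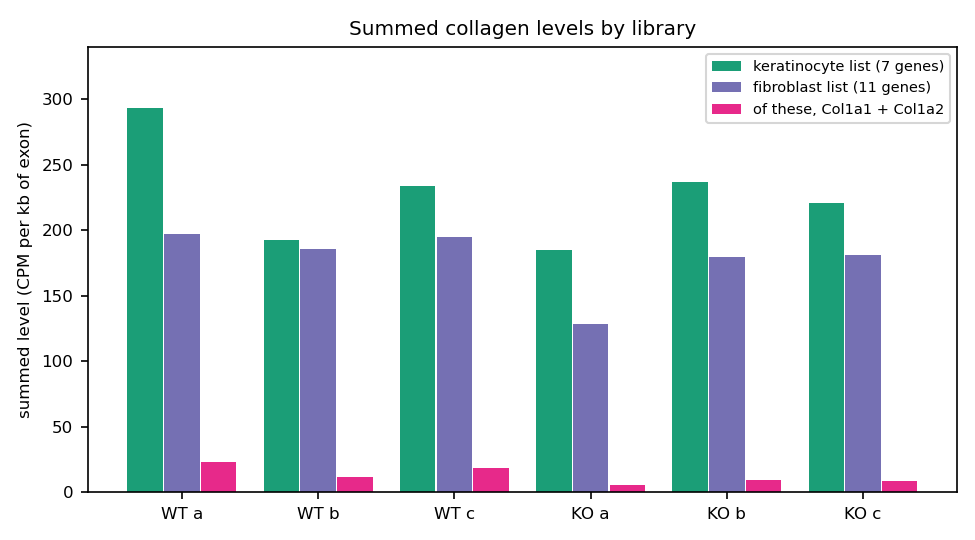
Summed level, in CPM per kb of exon, of the keratinocyte list (7 genes), the fibroblast list (11 genes) and, within the latter, of *Col1a1* and *Col1a2*, for each of the 6 libraries, with bars from 0. The fibroblast bars of the KO libraries (128 to 181) are below those of the WT libraries (186 to 197), while the keratinocyte bars overlap.

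The genes that modify, fold, export, cleave, cross-link and bind collagens were taken as a list of 45, of which 43 were tested. Of these, 1 was called (0.673% of all genes were), 8 were lower and 3 higher at an unadjusted p below 0.05 (5.97% and 5.58% of all genes), and the groups did not overlap for 9 with KO lower and 2 with KO higher (8.23% and 8.03% of all genes). The median log2 fold change was -0.095, or -0.049 with genes at 0 in a group set to their bound. The gene called was *Fkbp10*, a chaperone of the endoplasmic reticulum that is needed for the cross-linking of collagen I. It had 652, 651 and 767 counts in WT and 246, 392 and 323 in KO libraries. All WT libraries were well above all KO libraries, and *Fkbp10* fell by 1.07 ± 0.18 on the log2 scale to 47.5% of the WT level (edgeR adjusted p = 0.0248). It was called in 6 of 14 alternatives, with an adjusted p of 2.5e-05 to 0.368. The call was lost by limma-voom (adjusted p = 0.0769 with TMM factors), after filterByExpr (0.118), with a minimum of 10 counts (0.127), on protein-coding genes alone (0.0915), and without WT c (0.368), KO a (0.134) or KO c (0.108).

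The enzymes and helpers lower at an unadjusted p below 0.05 were the lysyl hydroxylase *Plod1* (-0.43 ± 0.13, edgeR adjusted p = 0.198), the prolyl 3-hydroxylase *Leprel1* (-0.56 ± 0.12, adjusted p = 0.0643), the related *Leprel4* (-0.76 ± 0.17, adjusted p = 0.0663), and the enhancers of procollagen cleavage *Pcolce* (-0.75 ± 0.32, adjusted p = 0.389) and *Pcolce2* (-0.94 ± 0.29, adjusted p = 0.189). On the same scale of log2 fold change, the collagen-binding integrin chains *Itga1* and *Itga2* were at -0.75 ± 0.29 and -0.38 ± 0.14 (adjusted p = 0.325 and 0.308). Higher at that limit were the transcription factor *Creb3l1* (0.56 ± 0.19, adjusted p = 0.265), the procollagen N-proteinase *Adamts3* (0.73 ± 0.30, adjusted p = 0.370) and the collagen uptake receptor *Mrc2* (0.71 ± 0.21, adjusted p = 0.168). None of these 10 passed the test over all genes.

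Of the 5 most abundant genes of that list, *Ddr1* was without overlap, slightly lower in KO, and the others overlapped. *P4hb*, a subunit of prolyl 4-hydroxylase, had 205 ± 15.4 CPM per kb in WT and 219 ± 19.9 in KO, and the collagen receptor *Ddr1* 154 ± 4.83 and 144 ± 5.70. *Itgb1*, the β1 integrin chain, had 97.8 ± 7.18 and 90.4 ± 4.90, the collagen chaperone *Serpinh1* 85.6 ± 7.79 and 92.2 ± 10.8, and the prolyl isomerase *Ppib* 70.3 ± 1.95 and 67.2 ± 4.36. The cross-linking enzyme *Lox* was at 0, 0 and 1 counts in WT and 2, 0 and 1 in KO libraries, under the floor in each.

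**Figure D5:**
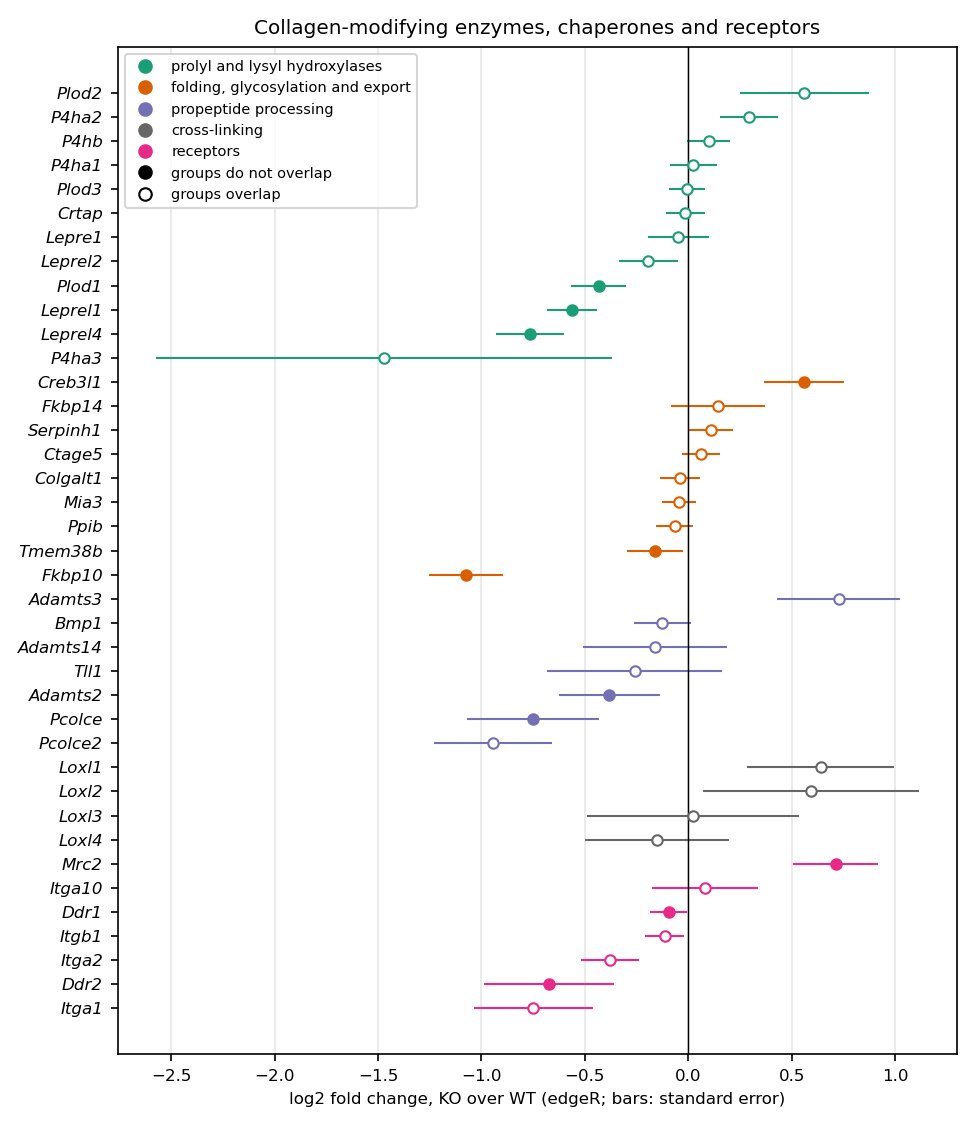
Log2 fold change of KO over WT (edgeR, bars for the standard error) for the genes of the collagen modification and receptor list above 3 counts in some library, colored by role; filled points mark groups without overlap. *Fkbp10* (-1.07) was the gene that passed the test. Of the 12 genes in the prolyl and lysyl hydroxylase group, 8 lie below 0, among them *Plod1*, *Leprel1* and *Leprel4*. The other 4 lie above 0, and the median of the group was -0.032.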

How the data were processed

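Poly(A)-selected, strand-specific libraries of 6 mice were sequenced by the authors, aligned by them with TopHat 2.1.0 and Bowtie 1.1 to GRCm38 using Ensembl annotation, and summarised per gene from unique alignments on the matching strand. The deposited values are these raw counts, without normalization or pooling, so genes with near-identical copies can lose reads. Library columns carry a genotype but no sample number and served as unnumbered replicates of it.

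Counts were tested here with edgeR 4.0.16 in R 4.3.3 (TMM factors, glmQLFit and glmQLFTest, genes above 0 counts in at least 1 library, adjustment over 21681 genes, threshold 0.05). Alternatives were limma-voom (limma 3.58.1), DESeq2 1.42.0, other scalings and filters, and leaving out each library. Levels are CPM divided by the union exon length of GENCODE M21, which covered 98.9% of tested genes. The exact permutation tests were two-sided on log2(CPM + 1). The code was tested on simulated counts.

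No library pair agreed within sampling noise (smallest chi-square per degree of freedom 7.93). Errors are the SD over 3 libraries for levels and the standard error of the edgeR fit for log2 fold changes, and the floor covers counting error only, since reads carry no molecular identifiers. The members and lists were chosen with earlier results of these data known. Named were both lists, other members at an unadjusted p below 0.05 or without overlap, the 10 highest levels, pathway genes at an unadjusted p below 0.05 or among the 5 highest, and defining or most abundant markers. Other genes named (Col8a1, Thy1, Fbln1, Vim, Dpp4, Sparc, Cd34, Lgr5, Krt17 and Lox) were chosen after their values were seen.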

Additional observations from a re-analysis of the deposited data

How the results depend on the processing

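The number of collagen genes called was 1 with edgeR and 0 by limma-voom under either scaling (TMM factors, library size), after filterByExpr, with a minimum of 10 counts in each library, and on protein-coding genes alone, 5 by DESeq2 (Col1a2, Col27a1, Col4a3, Col4a4 and Col8a2), and 0 to 3 with each library left out. For the modification and receptor list the number was 1 with edgeR, 0 under the same 5 settings, 3 by DESeq2, and 0 to 4 with each library left out. Over all genes the calls were 146 by edgeR, 24 by limma-voom with TMM factors, 546 by DESeq2 and 15 after filterByExpr, and the cause of these differences was not tested. At an unadjusted p below 0.05, limma-voom with TMM factors had 11 collagen genes and edgeR 12. The share of the 5 highest members was 80.0%, 77.4% with the longest transcript as length (added after seeing the data) and 76.6% as CPM without length. The keratinocyte share was higher in KO by 1.90 percentage points, with a range of -0.21 to 4.27 over single libraries left out. Of the 22 members followed through the alternatives, 18 reversed in none. Col18a1 went from -0.037 to 0.026 and 0.021 by limma-voom with TMM factors and library size, and ranged from -0.29 to 0.25 with single libraries left out, as did Col4a6 from -0.15 to 0.047, Col4a5 from -0.16 to 0.17 and Col5a3 from -0.39 to 0.42. No paired analysis was possible because the library columns carry no replicate number. At this depth, members under 3 counts in every library were not detectable.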
